A study of Mus musculus with 9 samples.

Results

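Transcripts of 9 genes whose products detect nucleic acids in the cell or pass on that signal were followed in the mouse cochlea after base editor delivery by a viral vector. The genes were chosen by name: Zbp1, Ifih1, Cgas, Sting1, Tlr3, Tlr7, Tlr9, Aim2 and Eif2ak2. All 9 were among the 25579 gene symbols of the deposited table of homozygous and treated libraries, and 0 were among the 1410 symbols of the deposited table of wild-type and homozygous libraries. The set holds sensors of RNA as well as of DNA.

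RNA came from the membranous labyrinth, the soft tissue inside the bony cochlea, of mice at postnatal day 28. Homozygous mice carried the humanized hMPZL2Q74X/Q74X allele, a nonsense change in a gene of an adhesion protein known from inherited hearing loss. Treated mice had the same genotype and had received AAV-ie-ABE8eWQ-SpRY:sgRNA3, an adeno-associated virus that encodes an adenine base editor with its guide, on postnatal day 2 by way of the round window membrane. Both groups had 3 libraries labelled as biological replicates, with nothing to say whether a library came from 1 animal or a pool. The groups differed in surgery, vector and editor at once, so the parts of these in any difference cannot be told apart. Mpzl2 WT mice formed another group of 3 libraries, and since 0 of the sensors were in the table that holds them, no level in wild-type tissue is given.

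Values are TPM, transcript abundance scaled for transcript length and library total, so levels of different genes can be compared. TPM keeps no read depth, and the depth of the libraries is unknown. Treated libraries 1 and 2 were close to copies of each other and entered every mean and test as 1 sample, which left 2 treated samples against 3 homozygous ones. Mitochondrially encoded genes took 10.7% to 13.6% of TPM in homozygous libraries and 2.17% to 6.16% in treated ones. Hair cell marker genes were present in both groups. Of 10 tested 0 passed limma. Of these 10, 7 were higher in every treated than in every homozygous library, against 28% of all tested genes. An unadjusted p under 0.05 in limma was reached by 7, against 26.7% of all tested genes. The median log2 fold change of these markers was 1.08, against 0.20 for all tested genes. Their sum, 513 to 613 TPM in homozygous and 577 to 703 TPM in treated libraries, was made up mostly of Myo6, which lay lower in every treated library, and Ocm. Markers of supporting cells and the lateral wall summed to 8139 to 11290 TPM in homozygous and 6153 to 7582 TPM in treated libraries without overlap, most of it Coch, and 1 of 14, Otog, rose. Genes marking forebrain neurons and glia, some of which the cochlear nerve also expresses, summed to 2036 to 5026 TPM in homozygous and 1847 to 4498 TPM in treated libraries, lowest in homozygous library 2 and treated library 3.

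Cells read foreign nucleic acid by its place and its form. TLR9 meets unmethylated CpG DNA in endosomes, where TLR3 meets double-stranded RNA and TLR7 single-stranded RNA. In the cytosol, cGAS binds DNA and makes the cyclic dinucleotide that opens signalling by STING, AIM2 assembles an inflammasome on DNA, MDA5 (Ifih1) binds long double-stranded RNA, PKR (Eif2ak2) halts translation when it binds such RNA, and ZBP1 binds left-handed Z-form nucleic acid and can start cell death through RIPK3. Interferon in turn is known to raise the transcription of several of these sensors, ZBP1, MDA5 and PKR among them, through the interferon-stimulated response element (ISRE), a repeated GAAA motif in front of or near the start of many such genes.

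Promoters of 6 of the 9 genes were taken by symbol from the RefSeq table of mouse build GRCm38.p6, as windows of 250 bases before to 50 after the annotated start. No window is given here for Zbp1, Sting1 and Tlr7. An ISRE-like match, the letters GAAANNGAAA on either strand, lay in the windows of Ifih1 and Eif2ak2, at 33 and 19 bases from the start of transcription counted from 1, and in 0 of the windows of Cgas, Tlr3, Tlr9 and Aim2. The windows of Tlr3 and Aim2 lie at a transcript start inside the span of the gene, and those of the other 4 at its outer end. Of all 32851 windows, 3.44% held such a match. The sites are shown because these were the matched genes whose transcripts rose, with the motif in capitals inside 30 bases of the minus strand of chr2:62646206-62646235 and chr17:78882535-78882564.
Ifih1: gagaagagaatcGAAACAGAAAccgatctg
Eif2ak2: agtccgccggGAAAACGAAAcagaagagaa

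The bases before the start are shown for the same genes and for Tlr9, the classical sensor of CpG DNA, at chr2:62646256-62646505 on the minus strand, chr17:78882573-78882822 on the minus strand and chr9:106222348-106222597 on the plus strand. These stretches hold no ISRE-like match and are therefore in lower case throughout.
Ifih1: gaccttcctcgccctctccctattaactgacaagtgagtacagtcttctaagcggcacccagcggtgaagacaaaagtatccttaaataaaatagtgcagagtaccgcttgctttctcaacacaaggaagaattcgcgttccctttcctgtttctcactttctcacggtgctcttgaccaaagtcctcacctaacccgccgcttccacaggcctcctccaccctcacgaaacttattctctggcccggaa
Eif2ak2: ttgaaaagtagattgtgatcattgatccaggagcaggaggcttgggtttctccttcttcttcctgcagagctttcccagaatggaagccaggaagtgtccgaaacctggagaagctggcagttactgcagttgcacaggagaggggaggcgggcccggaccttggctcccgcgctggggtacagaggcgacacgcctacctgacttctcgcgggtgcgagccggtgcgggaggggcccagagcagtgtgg
Tlr9: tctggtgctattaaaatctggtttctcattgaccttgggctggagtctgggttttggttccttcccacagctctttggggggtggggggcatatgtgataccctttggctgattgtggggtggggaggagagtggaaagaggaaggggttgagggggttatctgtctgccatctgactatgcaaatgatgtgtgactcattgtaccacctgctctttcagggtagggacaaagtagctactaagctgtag
A match of letters is a description of the sequence, and no binding was measured.

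Zbp1, Ifih1 and Eif2ak2 rose in the treated libraries. They were 3 of the 8 sensors tested, where 4.41% of all 17102 tested genes were called, with 3.44% risen and 0.965% fallen (limma, Benjamini-Hochberg adjusted p under 0.05 over all tested genes). Sting1 and Tlr9 were higher in every treated than in every homozygous library and did not pass, Aim2, Tlr3 and Tlr7 overlapped between the groups, and Cgas was too low to be tested. A gene was tested when at least 3 libraries had at least 1 TPM. Tlr9 met this through its treated libraries alone, so its test is not free of the filter. Zbp1 reached 1 TPM in homozygous library 2 but in neither other homozygous library, so it too met the filter only with its treated libraries. With no filter Zbp1 kept its call (limma adjusted p = 0.0279). The median log2 fold change of the 8 tested sensors was 1.81, against 0.20 for all tested genes. Over the other 7 without Tlr9, Zbp1 among them, it was 1.63. Each fold change was computed from log2(TPM + 1), so for genes at low TPM it is smaller than the ratio of the TPM values.

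**Figure D1:**
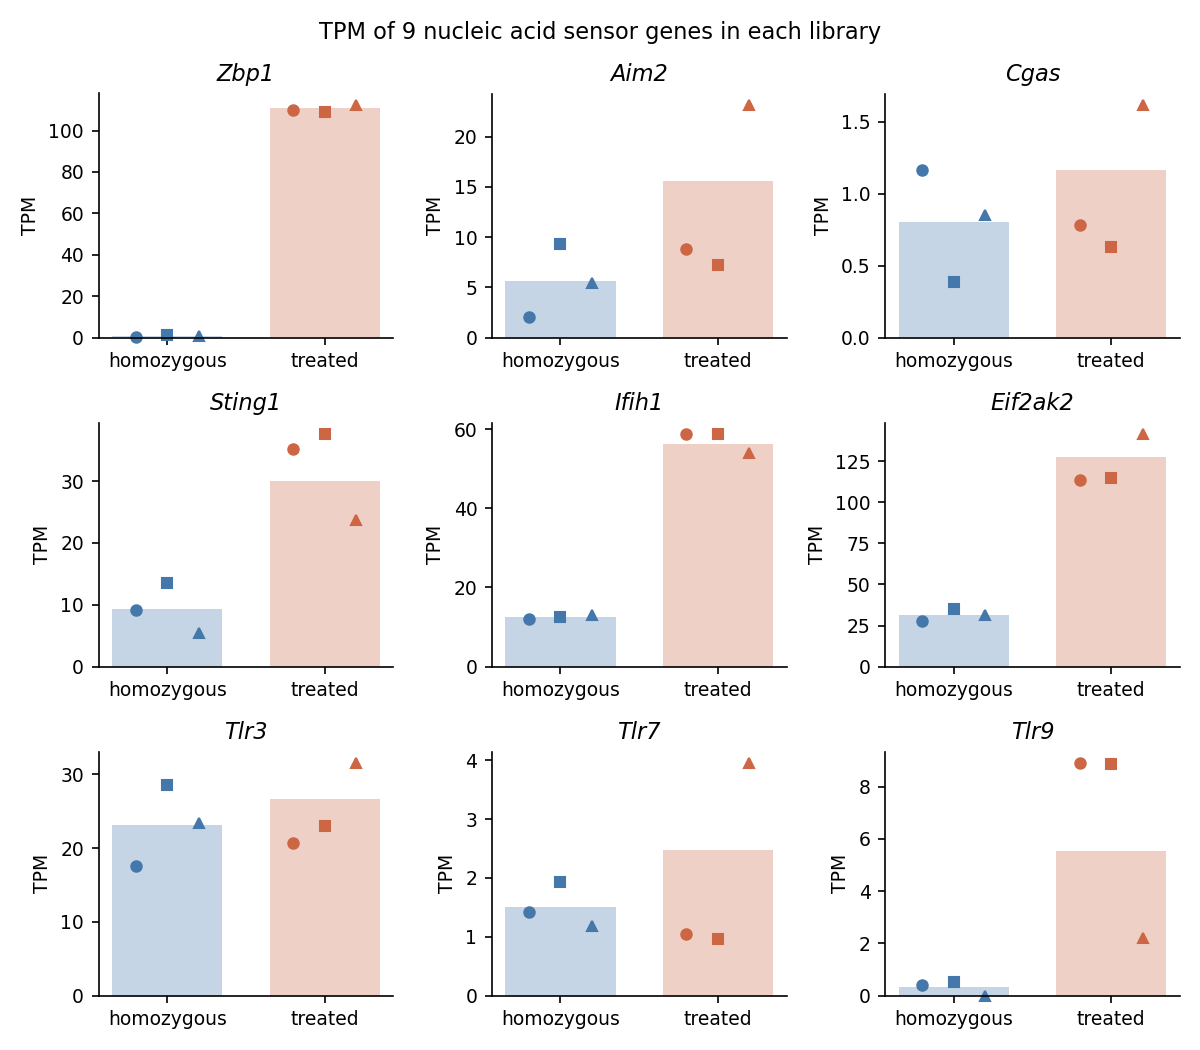
TPM of the 9 sensor genes in each library (vertical axes, from 0), with circles, squares and triangles for libraries 1, 2 and 3, and bars for the group mean in which treated libraries 1 and 2 count as 1 sample. Zbp1 stands near 111 TPM in all 3 treated libraries and near 0.91 TPM in the homozygous ones, Cgas stays under 2 TPM, and Tlr9 and Tlr7 differ between treated libraries 1 and 2 and library 3.

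Zbp1, the Z-form nucleic acid sensor, had 0.562, 1.19 and 0.973 TPM in homozygous libraries 1 to 3 and 109.9, 109 and 112 TPM in treated libraries 1 to 3. The groups were far apart, and the treated libraries were nearly level with one another, library 3 included, although library 3 differed from the other treated libraries across the transcriptome. The homozygous mean was 0.91 ± 0.32 TPM (SD, n = 3) and the treated mean 111 ± 1.96 TPM (SD, n = 2), a ratio of 122. The log2 fold change was 5.89 ± 0.33 (standard error; limma adjusted p = 0.00145), the 9th highest of the 17102 tested genes. Its mean level lay above that of 33.5% of all symbols in homozygous and of 93% in treated samples.

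Ifih1, the gene of MDA5, had 12.1, 12.5 and 13 TPM in homozygous libraries 1 to 3 and 58.7, 58.7 and 53.9 TPM in treated libraries 1 to 3. No library of one group came near the other group. Means were 12.5 ± 0.47 TPM (SD, n = 3) in homozygous and 56.3 ± 3.4 TPM (SD, n = 2) in treated samples, a ratio of 4.5. The log2 fold change was 2.08 ± 0.23 (standard error; limma adjusted p = 0.0111). The limma adjusted p was 0.0802 without homozygous library 1 and 0.0691 without library 3.

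Eif2ak2, the gene of PKR, was the highest of the 9 sensors in both groups. It had 27.5, 35 and 31.7 TPM in homozygous libraries 1 to 3 and 114, 115 and 141 TPM in treated libraries 1 to 3. Every treated library was above every homozygous one, with treated library 3 the highest. Means were 31.4 ± 3.77 TPM (SD, n = 3) in homozygous and 128 ± 19.3 TPM (SD, n = 2) in treated samples. The log2 fold change was 1.99 ± 0.21 (standard error; limma adjusted p = 0.00938). Here the limma adjusted p was 0.0695 without homozygous library 1 and 0.0654 without library 3, fits in which 63 and 70 of all genes passed, against 754 with every library.

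The composition of the sensor transcripts shifted with these rises. All 9 genes summed to 72 to 103 TPM in homozygous and 358 to 394 TPM in treated libraries. Zbp1 made up 1.06% of the summed mean in homozygous and 29.5% in treated samples, while the share of Tlr3 was 27.1% and 7.09%. In order of level, the homozygous samples had Eif2ak2, Tlr3, Ifih1, Sting1, Aim2, Tlr7, Zbp1, Cgas and Tlr9, and the treated samples Eif2ak2, Zbp1, Ifih1, Sting1, Tlr3, Aim2, Tlr9, Tlr7 and Cgas. Among homozygous libraries the ranges of most neighbours in this order overlapped, and those of Tlr3 and Ifih1 and of Aim2 and Tlr7 did not. In treated libraries the ranges overlapped for Sting1 and Tlr3, Tlr3 and Aim2, Aim2 and Tlr9, Tlr9 and Tlr7, and Tlr7 and Cgas, and every library had more Eif2ak2, Zbp1 and Ifih1 than any other sensor.

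The cytosolic DNA pathway was carried by transcripts of uneven level. Cgas, the DNA-binding enzyme at its head, had 1.17, 0.388 and 0.851 TPM in homozygous libraries 1 to 3 and 0.785, 0.631 and 1.61 TPM in treated libraries 1 to 3. The groups overlapped, and just 2 libraries reached 1 TPM, so the gene was not tested. In a fit that also took genes at 1 TPM in 2 libraries its log2 difference was 0.25 (limma adjusted p = 0.759).

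Sting1, the gene of the receptor for the product of cGAS, had 9.17, 13.5 and 5.45 TPM in homozygous libraries 1 to 3 and 35.1, 37.6 and 23.7 TPM in treated libraries 1 to 3. The lowest treated library was above the highest homozygous one, and treated libraries 1 and 2 were above library 3. The log2 fold change was 1.63 with a 95% interval of 0.62 to 2.64, and it did not pass over all genes (limma adjusted p = 0.075). Of the 8 tested sensors 5 had such a gap between the groups with treated above, as had 28% of all tested genes.

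Aim2, the inflammasome sensor of DNA, had 2.11, 9.3 and 5.48 TPM in homozygous libraries 1 to 3 and 8.8, 7.26 and 23.1 TPM in treated libraries 1 to 3. Treated library 3 stood above all others, and treated libraries 1 and 2 lay within the homozygous range. The log2 fold change was 1.32 with a 95% interval of -0.24 to 2.87 (limma adjusted p = 0.247).

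The endosomal receptors differed among themselves. Tlr9, the CpG DNA receptor, had 0.411 and 0.539 TPM in homozygous libraries 1 and 2, was listed at 0 in library 3, and had 8.91, 8.86 and 2.2 TPM in treated libraries 1 to 3. All treated libraries were above the homozygous ones, and treated library 3 had 0.248 times the level of the other treated sample. The log2 fold change was 2.12 ± 0.57 (standard error; limma adjusted p = 0.0805). Without treated library 3, which left 1 treated sample, it was 2.93.

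Tlr7, the receptor of single-stranded RNA, showed the opposite order among treated libraries. It had 1.41, 1.92 and 1.18 TPM in homozygous libraries 1 to 3 and 1.04, 0.963 and 3.95 TPM in treated libraries 1 to 3. Treated libraries 1 and 2 lay below every homozygous library and library 3 above, and the log2 fold change was 0.34 with a 95% interval of -0.86 to 1.55 (limma adjusted p = 0.701). Without treated library 3 it was -0.31.

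Tlr3, the receptor of double-stranded RNA, was the most abundant Toll-like receptor among the members. It had 17.6, 28.6 and 23.4 TPM in homozygous libraries 1 to 3 and 20.7, 23 and 31.5 TPM in treated libraries 1 to 3. Treated library 3 was the highest of all and the others lay within the homozygous range, the log2 fold change was 0.20 with a 95% interval of -0.53 to 0.93 (limma adjusted p = 0.713), and without treated library 3 it was -0.06.

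**Figure D2:**
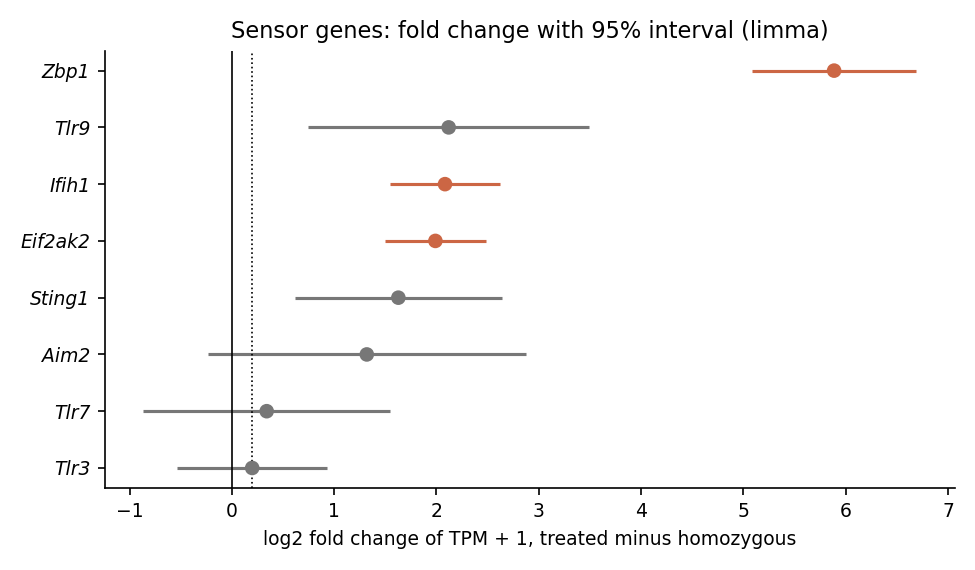
Log2 fold change of TPM + 1, treated minus homozygous (horizontal axis), for the 8 tested sensors with 95% intervals from limma; orange marks an adjusted p under 0.05 and the dotted line the median of all tested genes. Zbp1 at 5.89 lies apart from Ifih1 at 2.08 and Eif2ak2 at 1.99, and Tlr3 at 0.20 lies on the dotted line.

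Cells of the immune system carry several of these sensors, and their markers moved in the same libraries. Of 20 macrophage and microglia markers 9 rose and 0 fell, and 1, 6 and 2 rose without homozygous library 1, 2 and 3 and 3 with no filter. Their summed level was 286 to 404 TPM in homozygous and 1322 to 1460 TPM in treated libraries. C1qa, a complement subunit gene of macrophages, had means of 23.5 ± 4.7 and 138 ± 33.8 TPM (SD, n = 3 and 2). Of 12 tested T and NK cell markers 11 rose, with sums of 2.41 to 6.35 TPM and 136 to 190 TPM. Of these 12, 8 reached 1 TPM in no homozygous library and so passed the filter through the treated libraries alone, 7 of them among the 11. With no filter 2 of 16 were called, and without homozygous library 1, 2 and 3 the calls were 2, 1 and 0. In bulk tissue more cells of a type and more RNA per cell cannot be told apart. The part of immune cell markers in the rise of any sensor was not tested.

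B cells and plasmacytoid dendritic cells are among the cells known to carry TLR9. Their markers gave fewer calls than the macrophage list and the T and NK cell list. Of 8 tested B cell markers 0 passed and 2 had an unadjusted p under 0.05 in limma, or 25%, near the 26.7% of all tested genes. The B cell list summed to 40.5 to 89.5 TPM in homozygous and 104 to 139 TPM in treated libraries. Ighm, the immunoglobulin heavy chain gene, had means of 37.3 ± 8.48 and 66.6 ± 12.3 TPM, and Igkc, a light chain gene, 6.33 ± 3.81 and 21 ± 4.66 TPM (SD, n = 3 and 2 each). Of 7 tested plasmacytoid dendritic cell markers 3 had an unadjusted p under 0.05 and 1 rose, Bst2, which is also an interferon-induced gene. This list, Bst2 included, summed to 242 to 278 TPM in homozygous and 624 to 651 TPM in treated libraries. Bst2 itself had 6.07, 24.7 and 7.42 TPM in homozygous and 155, 154 and 391 TPM in treated libraries 1 to 3. Without Bst2 the sum of treated library 3 would lie within the homozygous range. Siglech, a surface receptor gene of that list named after its values were seen, had 5.54, 2.45 and 3.93 TPM in homozygous libraries. In treated libraries 1 to 3 it had 14.2, 12.7 and 1.86 TPM. Like Tlr9, Siglech was higher in treated libraries 1 and 2 than in library 3, where Tlr9 was above its homozygous values and Siglech below all of its own. Neutrophil markers summed to 55.4 to 614 TPM in homozygous and 194 to 240 TPM in treated libraries, with 0 of 9 passing limma and 2 at an unadjusted p under 0.05.

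**Figure D3:**
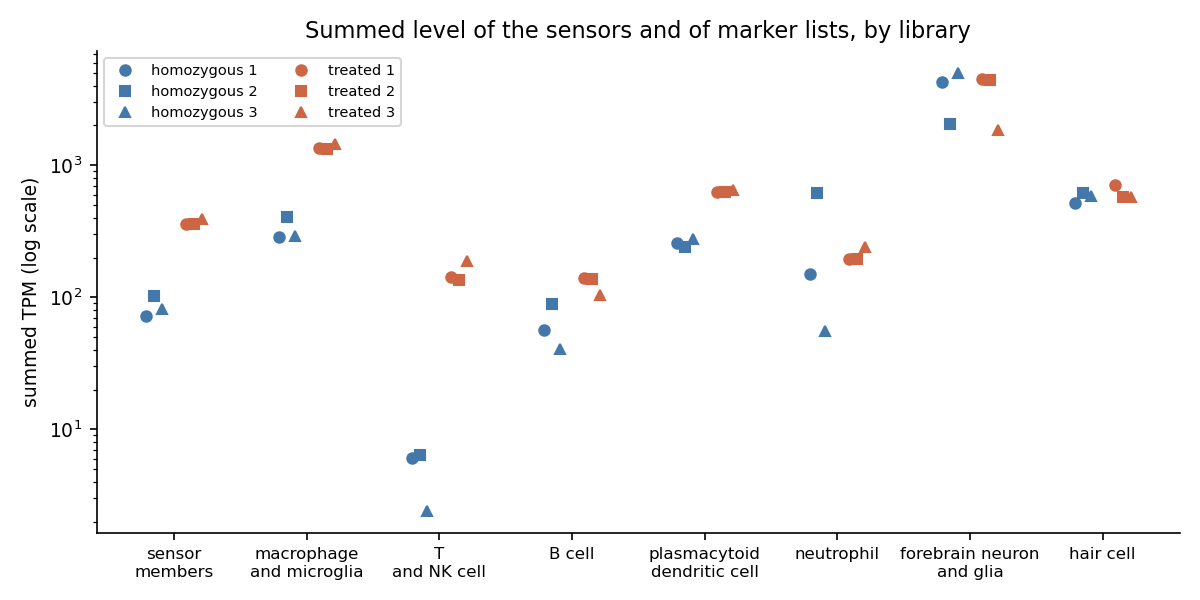
Summed TPM (log scale) of the 9 sensors and of marker lists in each library, homozygous in blue and treated in red. The sensor sum and the macrophage, T and NK cell, B cell and plasmacytoid dendritic cell lists lie higher in all treated libraries, the last of these with Bst2 included. The T and NK cell list has 2.41 to 6.35 against 136 to 190 TPM. The sums of the neutrophil, forebrain and hair cell lists overlap between groups.

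The genes that act beside, before and after the sensors were taken from 11 lists of 199 genes, of which 171 in the table were tested. Of these 39 rose and 0 fell, or 22.8%, against 3.44% and 0.965% of all tested genes. The median over all tested genes was 0.20 and became 0.02 under median-of-ratios scaling, so fold changes are read against that level. Under that scaling 33 of the 171 rose. The count depended on the homozygous libraries: it was 6, 13 and 7 without library 1, 2 and 3, and 15 with treated library 3 as the sole treated sample. Of 20 genes chosen as reporters of an interferon response, some of them also on these lists, 19 rose (12 without homozygous library 3), among them the guanylate-binding protein genes Gbp2 at 5.19 and Gbp3 at 4.26 on the log2 scale.

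Other nucleic acid sensors gave the most calls. Of 32 tested 19 rose, with a median log2 fold change of 1.79, and 1, 5 and 2 did without homozygous library 1, 2 and 3. With no filter 1 of 36 rose, a fit in which 134 of all genes passed, against 754. Of the 19, 2 passed the filter through the treated libraries alone. Ddx58, the gene of the RNA sensor RIG-I, a relative of MDA5, had means of 36.5 ± 6.47 and 136 ± 29.6 TPM (SD, n = 3 and 2) and rose by 1.87 on the log2 scale (limma adjusted p = 0.0178), beside 2.08 for Ifih1. Oasl2 and Oas1a, of the family of 2'-5' oligoadenylate synthetase proteins that double-stranded RNA activates or that resemble them, rose by 4.56 and 3.60, and Ddx60, an antiviral helicase gene, by 3.96. Of the relatives of Aim2 in the interferon-inducible PYHIN family, Ifi203, Ifi204, Ifi206, Ifi207, Ifi211 and Ifi213 rose, by 1.19 to 3.29. Mndal and Ifi209 of that family did not pass (limma adjusted p = 0.0708 and 0.0987), and Ifi205 and Ifi208 were too low to be tested. These genes are named as a family after their values were seen. Genes of the PYHIN and Oas1 families have close copies between which kallisto may divide reads, so single members are uncertain. Of the 6 PYHIN genes that rose Ifi203 and Ifi207 lost their call under median-of-ratios scaling (limma adjusted p = 0.071 and 0.0614).

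Toll-like receptors outside the members gave 2 rises in 9 tested genes of their list, and 0 without any 1 of the homozygous libraries or with no filter. Tlr12, a receptor for parasite profilin, was listed at 0 in homozygous libraries 1 and 3, had 0.0988 TPM in library 2, and had 2.58, 11.3 and 14.4 TPM in treated libraries 1 to 3 (limma adjusted p = 0.0182), and passed the filter through the treated libraries alone. Cd180, a relative of TLR4 on B cells and macrophages, rose by 2.31, with means of 1.37 ± 0.43 and 10.7 ± 2.2 TPM (SD, n = 3 and 2; limma adjusted p = 0.0331). Tlr8, which like TLR7 reads single-stranded RNA, was too low to be tested, and as a gene named after its values were seen it had 2.94, 0.994 and 0.301 TPM in homozygous and 0.0728, 0.136 and 9.43 TPM in treated libraries 1 to 3. As with Tlr7, treated library 3 was the highest of all and treated libraries 1 and 2 the lowest.

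The machinery that delivers Toll-like receptors to endosomes and cuts them there gave 2 rises in 15 genes, and 1 without any 1 of the homozygous libraries. Unc93b1, the chaperone that endosomal receptors need to leave the endoplasmic reticulum, had 29.1, 23.1 and 13.3 TPM in homozygous and 69.6, 68 and 84.5 TPM in treated libraries 1 to 3. Every treated library was above every homozygous one, and the gene rose by 1.82 on the log2 scale (limma adjusted p = 0.0418). It did not pass in 4 of 6 fits that omitted 1 library, nor under median-of-ratios scaling (limma adjusted p = 0.0627). Ctss, a cathepsin gene of antigen-presenting cells that was also on the macrophage list, rose by 2.97, with means of 41.3 ± 2.28 and 330.3 ± 25.8 TPM (SD, n = 3 and 2; limma adjusted p = 0.00145).

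Adaptors and kinases that carry the signal gave no call in limma. Of 22 tested, 0 were called and 5 reached an unadjusted p under 0.05, or 22.7%, against 26.7% of all tested genes. Their median log2 fold change was 0.46, and 81.8% lay above 0, against 61% of all tested genes. Irak1, a kinase below MyD88, had means of 103 ± 20.97 and 237 ± 71 TPM (SD, n = 3 and 2; limma adjusted p = 0.0571), and Azi2, an adaptor of TBK1, 144 ± 20.4 and 147 ± 25.4 TPM. Named after their values were seen, Mavs, the adaptor of MDA5 and RIG-I, had a log2 difference of 0.84 (limma adjusted p = 0.135), Myd88, the adaptor of TLR7 and TLR9, one of 1.08 (adjusted p = 0.105), and Tbk1, the kinase below STING, one of -0.33 (adjusted p = 0.413).

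Interferon regulatory factors, the transcription factors at the end of these pathways, gave 6 rises in 9 genes, and 3 without any 1 of the homozygous libraries. Irf7, which is itself interferon-induced, rose by 4.58 on the log2 scale, with means of 10.6 ± 5.73 and 255 ± 21.8 TPM (SD, n = 3 and 2; limma adjusted p = 0.00608). Irf1 and Irf9 rose by 2.99 and 2.36. Irf3, the factor that STING and MAVS activate through phosphorylation, rose by 1.34 (limma adjusted p = 0.0239) and did not pass in 3 of 6 fits that omitted 1 library.

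Transcripts of the interferons themselves were scarce. Of 21 interferon genes 4 were in the table and 2 were tested. Ifng, the type II interferon gene of T and NK cells, was listed at 0 in the 3 homozygous libraries and had 6.94, 6.75 and 2.58 TPM in treated libraries 1 to 3. It passed the filter through the treated libraries alone (limma adjusted p = 0.0426). Ifnk, a type I interferon gene of epithelia, had 4.59, 6.93 and 7.56 TPM in homozygous and 9.43, 7.66 and 8.36 TPM in treated libraries (limma adjusted p = 0.536). Ifna16 and Ifnz were listed at 0 in all treated libraries.

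Effectors of cell death and the inflammasome gave 2 rises in 17 genes, with 94.1% above 0 against 61% of all tested genes, and 0 rises without any 1 of the homozygous libraries. Mlkl, the pore-forming protein gene at the end of the necroptosis pathway that ZBP1 can start, had 3.72, 3.33 and 3.34 TPM in homozygous and 17.1, 16.5 and 16 TPM in treated libraries 1 to 3, and rose by 1.96 on the log2 scale (limma adjusted p = 0.0331). As for Zbp1, the 3 treated libraries were close together. Casp4, the gene of the caspase that reads cytosolic lipopolysaccharide, rose by 1.76 (limma adjusted p = 0.0494) and lost its call under median-of-ratios scaling (adjusted p = 0.0627). Named after its values were seen, Ripk3, the kinase between ZBP1 and MLKL, had 2.16, 4.67 and 1.79 TPM in homozygous and 17.7, 16 and 4.39 TPM in treated libraries 1 to 3 (limma adjusted p = 0.204), so that treated library 3 lay within the homozygous range. Pycard and Casp1, the adaptor and the protease of the AIM2 inflammasome, had log2 fold changes of 1.17 and 1.63 (limma adjusted p = 0.144 and 0.0895).

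Enzymes that remove nucleic acids gave 4 rises in 17 genes, and 0, 1 and 0 without homozygous library 1, 2 and 3. Trex1, the exonuclease that clears cytosolic DNA and so limits cGAS, was at or near 0 in homozygous libraries 1 and 3, had 1.09 TPM in library 2, and had 11.6, 13.9 and 10.2 TPM in treated libraries 1 to 3 (limma adjusted p = 0.0234). Pld4, an endolysosomal exonuclease gene known to limit TLR9, rose by 2.79, with means of 5.2 ± 0.97 and 42.2 ± 11.8 TPM (SD, n = 3 and 2; limma adjusted p = 0.0147). Samhd1, which breaks down deoxynucleotides, rose by 1.72, and Dnase1l3, a nuclease of extracellular DNA, by 2.02 on the log2 scale. Dnase1l3 passed the filter through the treated libraries alone. Trex1, with homozygous library 2 its only homozygous one at 1 TPM, also needed its treated libraries to pass. Among 20 tested regulators of cGAS and STING 3 rose, Usp18, a brake on the interferon receptor, by 3.68, Trim30a by 2.38 and Ifi35 by 2.21, and the count was 1, 2 and 1 without homozygous library 1, 2 and 3.

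The stress response and DNA end lists also had no call. Of 16 genes of the integrated stress response, the pathway that PKR enters by phosphorylating eIF2 alpha, 0 were called by limma and 1 reached an unadjusted p under 0.05, or 6.25%, with a median log2 fold change of 0.01. Atf4, its transcription factor, had means of 119 ± 7.17 and 145 ± 3.69 TPM (SD, n = 3 and 2; limma adjusted p = 0.312), and Dnajc3, an inhibitor of PKR, 63.5 ± 8.71 and 68 ± 14.9 TPM. The other kinases of eIF2 alpha, Eif2ak1, Eif2ak3 and Eif2ak4, named for their kinship with PKR after their values were seen, had log2 fold changes of -0.09, -0.17 and 0.10 beside 1.99 for Eif2ak2. Of 12 genes that sense or join DNA ends, 0 were called by limma and 2 reached an unadjusted p under 0.05, or 16.7%, with a median of 0.11. Trp53bp1 had means of 157 ± 2.4 and 210 ± 102 TPM and Hmgb2 70.8 ± 49.7 and 203 ± 10.9 TPM (SD, n = 3 and 2 each; limma adjusted p = 0.526 and 0.0921).

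**Figure D4:**
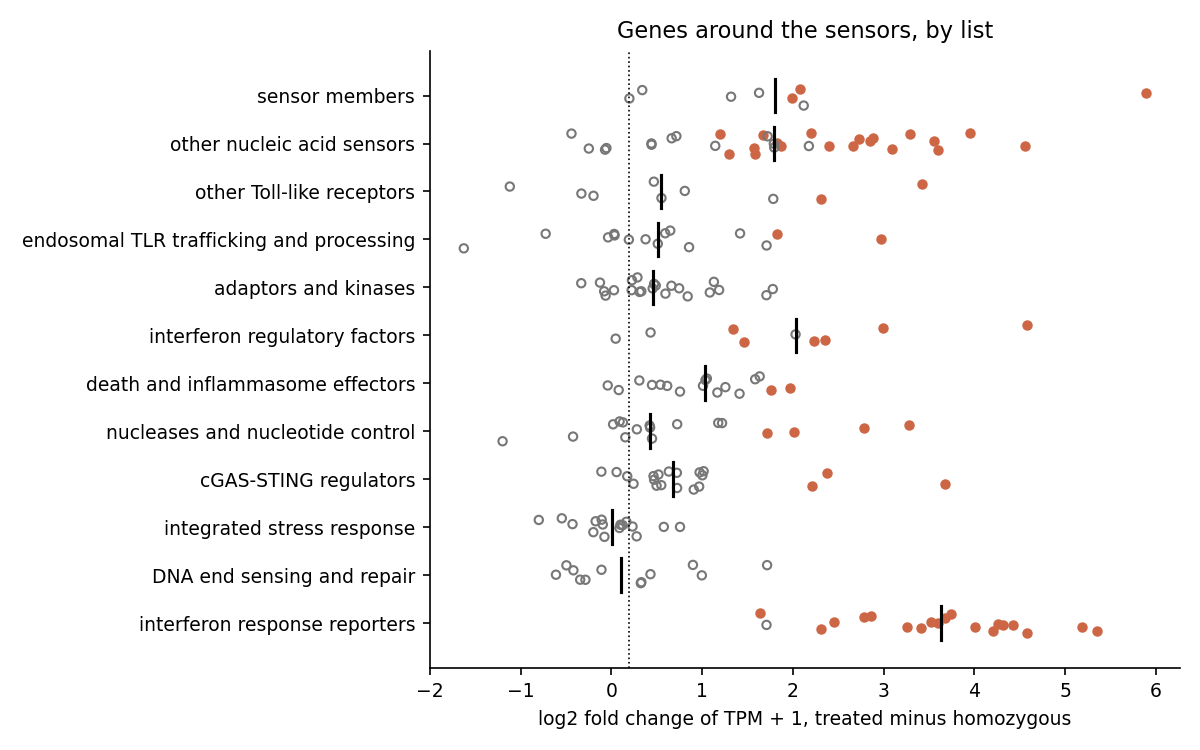
Log2 fold change of TPM + 1, treated minus homozygous (horizontal axis), of each tested gene by list; filled points passed limma at an adjusted p under 0.05, black ticks are list medians and the dotted line is the median of all tested genes. Rises lie mostly among other sensors (19 of 32) and interferon regulatory factors (6 of 9), and the adaptor, stress response and DNA end lists hold open points alone.

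ISRE-like letters were more frequent in the windows of the genes that rose. Of the 39 pathway genes that rose 31 had a promoter window, and 38.7% of these held a match, as did 8.11% of the 111 with a window among the pathway genes that were tested and did not pass. Among all tested genes with a window the shares were 16.4% of those that rose and 3.29% of those that did not pass. The sets were not matched for base composition, and the lists contain genes picked as interferon-induced, so these shares are descriptions without a test.

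The genes whose centred profile over the 5 samples was most like that of a sensor that rose were found by the root mean square difference of log2(TPM + 1). For Ifih1 they were Gbp2b, Gm50237 and Vsig10l, at 0.03 to 0.09. For Eif2ak2 they were Apol6, Dnase1l3 and Ddx58, at 0.06 to 0.09, and for Zbp1 Gm28635, Tgtp1 and H2-Aa, at 0.33 to 0.37. Tgtp1 has a near-identical copy and is uncertain. With 5 samples in 2 groups the measure follows the group difference and little else.

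The table of WT and homozygous libraries held 9 of the pathway genes, of which 8 were tested. Oas1a was higher in homozygous libraries and Sike1 and Parp1 were lower, where 51.3% of all tested genes of that table were called in either direction. It is a table of a part of the genes, with no statement of how they were picked. Sike1, a suppressor of TBK1 signalling, had a WT mean of 53.3 ± 1.89 TPM and a homozygous mean of 33.6 ± 4.34 TPM (SD, n = 3; limma adjusted p = 0.0188). In the other table Sike1 had 45.6, 27.9 and 42.7 TPM in the homozygous libraries, so the tables hold different values for the same libraries and no level was set across them. Between homozygous and treated libraries Sike1 overlapped (limma adjusted p = 0.793). Nlrp3, the gene of another inflammasome sensor and under the filter there, had 0.218, 0.383 and 0.122 TPM in WT and 0.96, 1.26 and 1.21 TPM in homozygous libraries 1 to 3, named after its values were seen.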

How the data were processed

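Stranded total RNA libraries of the cochlear membranous labyrinth were deposited as TPM, which the authors made with kallisto 0.51.0 against GRCm39, with DESeq also named, per the submitters' processing notes. What DESeq was used for and the annotation are not given in the sources used here. Groups came from sample titles and columns from their names, with 0 sample columns left unmapped. Sensors and gene lists were chosen with earlier results of these data known.

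Repeated symbols were summed. In the table of homozygous and treated libraries, 17102 genes that reached 1 TPM in 3 or more libraries were fitted with limma 3.58.1 in R 4.3.3 on log2(TPM + 1), with a mean-variance trend, two-sided tests, Benjamini-Hochberg adjustment over all tested genes and a threshold of 0.05. The table of WT libraries was fitted alone in the same way (1348 genes). Treated libraries 1 and 2 were averaged to 1 sample: the spread of their log2 ratio (scaled median absolute deviation) at 1 to 5 TPM was 0.0695, against 0.869 to 1.09 for pairs of homozygous libraries and 1.81 to 1.83 for each with treated library 3. P-values measure the spread between these samples. Named genes are all sensors, up to 4 higher and 2 lower genes of each list by smallest p, or its 2 highest by mean. Scripts were tested on simulated data. Alternatives were other pseudocounts, filters, scalings, treated libraries kept separate, a replicate block, and leaving out libraries.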

Additional observations from a re-analysis of the deposited data

How the results depend on the processing

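Of the 8 tested sensors, Zbp1 kept its call in all 16 alternatives, with log2 fold changes of 5.73 to 6.83 and adjusted p of 0.000121 to 0.0279 (limma), and Ifih1 and Eif2ak2 kept theirs in 14 of 16. The count of sensors called was 3, ranged from 1 to 4 with 1 library left out, and became 5 with the 3 treated libraries separate, which counts a near copy as a replicate. Omitting treated library 1 or 2 left its near copy in the fit. Without treated library 3, Tlr3 and Tlr7 turned to log2 fold changes of -0.056 and -0.31, against highest values of 0.36 and 0.46, both without homozygous library 2, with 1 library left out. The count of pathway genes called was 39, ranged from 6 to 53 with 1 library left out, and was 7 with no filter, 71 with treated libraries separate and 15 with treated library 3 as the sole treated sample. Of the 39, 6 kept their call in all 6 fits with 1 library left out. Over all genes, 754 passed (589 higher, 165 lower), 134 with no filter, 479 without trend, 222 with treated library 3 alone, 3563 with treated libraries separate, 63, 183 and 70 without homozygous libraries 1, 2 and 3, and 2984 without treated library 3. Median-of-ratios scaling gave 404 higher and 243 lower genes, and TPM without mitochondrially encoded genes 443 and 205. The cause of these differences was not tested. Fits without a homozygous library or without treated library 3 also had fewer samples, and the part of this was not tested either.

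Labels share replicate numbers. Same-numbered homozygous and treated libraries had correlations of deviations of -0.15 to 0.03, and 0 of 6 libraries correlated best with their own number. The check found no pairing by number. It cannot exclude such pairing, since few libraries entered it and the treated ones included near copies. A fit with the replicate block and 3 treated libraries called 5 sensors, 48 pathway genes and 1485 genes in all. No fit of the sensors between homozygous and WT libraries was made, since 0 of them are in that table, and its alternatives were not run. The depth is unknown, which leaves the precision of Cgas, Tlr7 and Tlr9, at a few TPM or less, unknown as well.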
